A study of Mus musculus with 16 samples.

Results

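Tuft cells are rare chemosensory cells of the gut lining, and 10 of the 46078 genes in the count tables were examined as their genes, taken as a list and matched by symbol to Ensembl identifiers. They were the transcription factor Pou2f3, the kinase Dclk1, the transduction genes Trpm5, Gnat3 and Plcb2, the lipid enzymes Ptgs1, Alox5 and Hpgds, the actin-binding protein Avil and the adaptor Sh2d6. Values come from 16 RNA-seq libraries of mouse intestinal organoids (background strain C57BL6), epithelial cultures grown from isolated crypts in Matrigel with EGF, R-spondin and Noggin. The study asked how Apc mutant cells affect their neighbours.

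The libraries fell into 6 groups by their labels. Without conditioned medium, on day 2, there were 2 Apc mutant libraries and 2 wild type (WT) libraries. In conditioned medium there were 3 libraries titled APCCM and 3 titled WTCM on each of days 2 and 4. The culture protocol gives crypts of Lgr5-EGFP-IRES-CreERT2 mice as wild type and the same allele with Apc fl/fl as mutant, recombined in culture with 4OH-tamoxifen, and also lists Villin-CreERT2 Apc fl/fl mice. Wild type organoids carried an mCherry construct and mutant ones a Venus construct, so the fluorescent construct also differs between genotypes. The genotype label of the APCCM libraries is Apc mutant and that of the WTCM libraries is WT, but the treatment label names medium of Apc mutant cultures for all 12. From the labels alone it cannot be told whether a title stands for the cells' genotype or for the culture the medium came from. Levels of Notum, Nkd1 and Apc in these libraries are given below. The labels do not say whether replicates were separate cultures or animals, so p-values measure only the spread between these libraries.

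Tuft cells sense luminal signals through a cascade shared with taste cells, in which a G protein acts on phospholipase C, calcium is released and the Trpm5 channel opens. They are known for the master regulator Pou2f3 and for making prostaglandins, leukotrienes and the cytokine IL-25 in type 2 immunity. In the mouse intestine Dclk1 is their most used marker, and tuft cells are one of the secretory lineages that arise from crypt stem cells.

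Gene counts per library ranged from 17986815 to 29152692 in conditioned medium and from 8325979 to 13027701 without it. Epcam was read at 1038 to 1091 CPM in the conditioned medium libraries and 424 to 1031 CPM in the untreated ones. Summed markers of intestinal epithelium reached 2564 and 2833 CPM in the untreated mutant libraries, against 5048 and 5516 CPM in untreated WT. Apc itself, counted over the whole gene, stood at 218 and 249 CPM in untreated mutant and 69.3 and 76.2 CPM in untreated WT libraries, which does not show the recombined part. In conditioned medium libraries Apc stood at 237 to 281 CPM, averaging 267 CPM in APCCM and 253 CPM in WTCM libraries on day 2. Under both titles this was closer to the untreated mutant than to the untreated WT levels. The Wnt target Notum reached 258 and 312 CPM in untreated mutant and 0.218 and 0.327 CPM in untreated WT libraries. It reached at most 1.03 CPM in any conditioned medium library, so it went against the genotype label of the 6 APCCM libraries. Apc did not follow that pattern. The APCCM and WTCM libraries are called by their titles below. Nkd1 averaged 486 CPM in the untreated mutant and 1.55 CPM in untreated WT. In APCCM and WTCM libraries it averaged 1.61 and 3.66 CPM on day 2, and 1.76 and 4.68 CPM on day 4. Xist stood at 1940 to 3710 CPM in untreated and 1.17 to 11.4 CPM in conditioned medium libraries, and the Y-linked Ddx3y at 0 to 0.164 and 86.9 to 129 CPM. By these sex-linked levels the untreated libraries read as female and the conditioned medium libraries as male. For this reason no contrast of media within 1 label is given. Replicate 1 of WTCM on day 4 stood apart, with a chi-square per degree of freedom of 39.9 and 42.2 against its replicates, where all other pairs lay between 3.30 and 6.08.

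Levels are CPM, read counts scaled to library size. Between genes they are compared only per kilobase of merged exons. In untreated WT libraries the highest were Avil at 1.49 ± 0.203, Pou2f3 at 1.40 ± 0.220, Trpm5 at 1.18 ± 0.0943 and Sh2d6 at 1.15 ± 0.353 CPM per kilobase (SD, n = 2). Neighbours in this order did not differ beyond their spread. Dclk1 followed at 0.674 ± 0.0459, Ptgs1 at 0.572 ± 0.0649, Alox5 at 0.375 ± 0.108 and Hpgds at 0.231 ± 0.0148 CPM per kilobase, with Gnat3 and Plcb2 at 0.0701 and 0.0475. The untreated mutant order was led by Ptgs1 at 13.3 ± 0.177, ahead of Trpm5 at 0.514 ± 0.206 and Pou2f3 at 0.411 ± 0.0214 CPM per kilobase, while Dclk1 stood at 0.00630. In APCCM libraries on day 4 Trpm5 was at 2.55 ± 0.280, Avil at 2.45 ± 0.130 and Sh2d6 at 2.07 ± 0.396 CPM per kilobase, against 1.95 ± 0.125, 1.81 ± 0.322 and 1.17 ± 0.206 in WTCM libraries, where Pou2f3 was at 2.02 ± 0.180. Trpm5 and Avil did not differ beyond their spread in either, nor did Pou2f3 differ from them in WTCM.

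**Figure D1:**
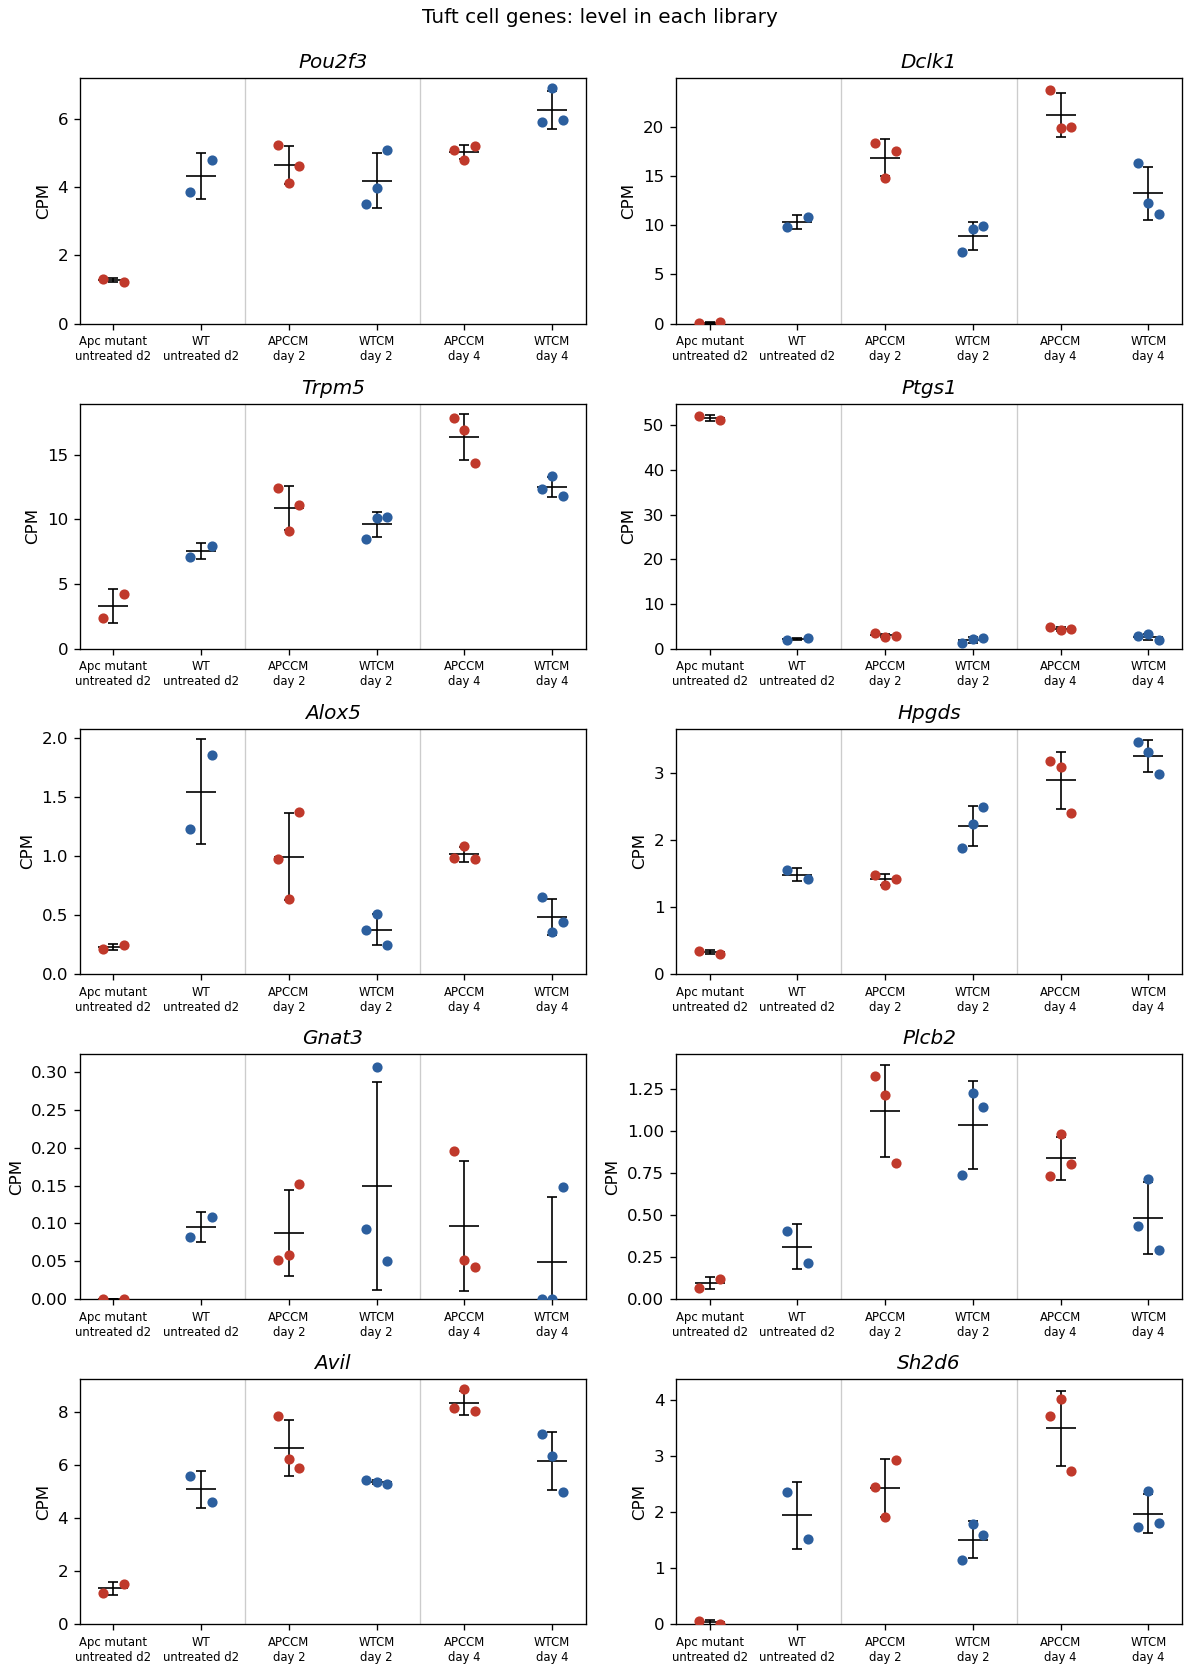
Level of each of the 10 tuft cell genes, in CPM (vertical axis, from 0), in every library of the 6 groups (horizontal axis). Points are libraries, the bar is the group mean and whiskers are 1 SD. Ptgs1 stands at 51.1 and 52.1 CPM in untreated Apc mutant libraries and at most 4.89 CPM in any other, while Dclk1 is at 0.0693 and 0.122 CPM there and at least 7.32 CPM in all others.

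Promoter windows show the sequences beside which these levels are read. Of the 10 members, 9 matched a RefSeq promoter window (GRCm38.p6, 250 bases before to 50 after the start), with 2 windows for Dclk1. The octamer bound by POU domain factors, ATGCAAAT, was searched on both strands, since Pou2f3 is a factor of that class. Of these windows only the one of Hpgds held it, 174 bases before the start, at chr6:65144897-65144904. In the GENCODE M21 annotation Hpgds begins further upstream, at 65144908 on the minus strand, so the octamer lies inside that gene model. Of all 32851 windows in the table, 1.74% held the octamer. The TCF/LEF core CTTTGAT, searched on both strands after the sequences had been seen, stood in the first Dclk1 window, 153 bases before the start, and in 3.73% of all windows. The windows of Hpgds and Dclk1 are printed because they held a motif, and that of Ptgs1 because it was the member higher in the untreated mutant. Capitals mark the octamer in Hpgds and the core in Dclk1, and Ptgs1 held neither.
Hpgds promoter, chr6:65144681-65144980, minus strand: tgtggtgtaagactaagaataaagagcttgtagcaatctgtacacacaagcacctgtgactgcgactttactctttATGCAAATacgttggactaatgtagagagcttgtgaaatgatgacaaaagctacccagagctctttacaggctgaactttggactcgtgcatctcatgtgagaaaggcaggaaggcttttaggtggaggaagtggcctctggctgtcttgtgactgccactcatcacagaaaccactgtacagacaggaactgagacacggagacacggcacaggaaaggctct
Dclk1 promoter, chr3:55242114-55242413, plus strand: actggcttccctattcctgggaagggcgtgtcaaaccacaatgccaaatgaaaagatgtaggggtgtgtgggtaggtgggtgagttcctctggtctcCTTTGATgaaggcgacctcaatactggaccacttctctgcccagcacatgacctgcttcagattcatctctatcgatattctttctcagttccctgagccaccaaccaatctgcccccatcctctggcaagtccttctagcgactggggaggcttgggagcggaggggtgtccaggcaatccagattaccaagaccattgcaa
Ptgs1 promoter, chr2:36230176-36230475, plus strand: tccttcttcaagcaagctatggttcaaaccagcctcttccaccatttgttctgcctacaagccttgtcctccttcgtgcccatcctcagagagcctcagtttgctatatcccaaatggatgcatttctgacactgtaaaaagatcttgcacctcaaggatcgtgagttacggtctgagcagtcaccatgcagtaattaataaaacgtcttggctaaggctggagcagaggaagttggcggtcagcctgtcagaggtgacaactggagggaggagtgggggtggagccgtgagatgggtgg
A match describes the letters in the window and no binding was measured.

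Without conditioned medium, 7 tuft cell genes were lower in Apc mutant than in WT libraries, 1 was higher and 1 did not pass the test. Of the 10, 9 passed the filter on low counts and Gnat3 did not. An adjusted p under 0.05 from edgeR's quasi-likelihood test was called, and 62.5% of all 16510 tested genes were called here, 32.4% higher and 30.1% lower. The median log2 fold change was -1.90 over the 9 members and 0 over all tested genes. In these bulk samples fewer tuft cells and less RNA per cell cannot be told apart.

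Pou2f3 (ENSMUSG00000032015, chr9:43123939-43210369, minus strand), the factor without which mice lack tuft cells, was read at 1.32 and 1.22 CPM in the mutant libraries and at 3.84 and 4.80 CPM in WT libraries. Both mutant libraries lay below both WT ones. Here and below, the share of all tested genes whose groups separate in this way was not counted, so separation is only described. The log2 fold change was -1.75 (SE 0.27, adjusted p = 4.82e-06). Avil (ENSMUSG00000025432, chr10:127000709-127020994, plus strand), which bundles actin in the cell's apical tuft, stood at 1.18 and 1.53 CPM in mutant and 5.56 and 4.58 CPM in WT libraries. It fell by 1.90 on the log2 scale (SE 0.27, adjusted p = 1.08e-06), close to Pou2f3. Avil shares 165 exon bases with Tsfm on the other strand, and no strand setting is given in the sources used here. Tsfm averaged 21.7 CPM in mutant and 35.3 CPM in WT libraries (log2 fold change -0.71, adjusted p = 6.8e-07), and its part in the Avil result was not tested.

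Dclk1 (ENSMUSG00000027797, chr3:55242364-55539068, plus strand), a kinase bound to microtubules, was nearly absent from the mutant libraries. It had 0.0693 and 0.122 CPM there, from 3 reads in all, against 9.81 and 10.8 CPM in WT libraries, from 219 reads. The WT level was 105 times the mutant one by these reads, with a 95% interval of 35.5 to 513 that covers counting error only, and the adjusted p was 3.77e-12. Its 2 opposite-strand neighbours that share 114 exon bases, Gm21954 and Gm42609, had 0 counts in every library. Sh2d6 (ENSMUSG00000052631, chr6:72513641-72521707, minus strand), a protein with an SH2 domain that is enriched in tuft cells, had 0.0693 and 0 CPM in mutant libraries and 2.37 and 1.53 CPM in WT libraries. From 1 read against 43, the WT level was 61.8 times the mutant one (95% interval 10.5 to 2498, adjusted p = 5.97e-07).

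The transduction genes were lower or too weakly read to call. Trpm5 (ENSMUSG00000009246, chr7:143069153-143094642, minus strand), the calcium-activated cation channel, stood at 2.36 and 4.22 CPM in mutant libraries and 7.11 and 7.97 CPM in WT libraries. The replicates of the mutant were far apart but did not reach the WT range, and the log2 fold change was -1.17 (SE 0.23, adjusted p = 0.000123). Trpm5 shares 220 exon bases with Tssc4 on the other strand, which averaged 25.0 CPM in mutant and 24.3 CPM in WT libraries (adjusted p = 0.882). The part of Tssc4 in the Trpm5 levels and result was not tested. Plcb2 (ENSMUSG00000040061, chr2:118707517-118728438, minus strand), a phospholipase C of taste-type signalling, had 3 reads over the mutant and 7 over the WT libraries, with a WT to mutant ratio of 3.36 (95% interval 0.766 to 20.1, adjusted p = 0.124). Gnat3 (ENSMUSG00000028777, chr5:17962549-18019834, plus strand), the alpha subunit gustducin, had 0 reads in both mutant libraries and 1 in each WT library. The floor of 3 counts over a group was 0.0975 CPM for the mutant and 0.140 CPM for WT, so no difference was detectable at this depth.

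The lipid enzymes split. Ptgs1 (ENSMUSG00000047250, chr2:36230426-36252272, plus strand), the cyclooxygenase COX-1 that starts prostanoid synthesis, was read at 52.1 and 51.1 CPM in mutant libraries and at 2.04 and 2.40 CPM in WT libraries. It rose 23.4-fold (log2 fold change 4.55, SE 0.21, adjusted p = 1.62e-15) and made up 90.3 and 86.8% of the summed CPM of the 10 genes in the mutant libraries, against 6.01 and 6.73% in WT. The other 9 genes together came to 5.61 and 7.77 CPM in mutant and 32.0 and 33.3 CPM in WT libraries. Hpgds (ENSMUSG00000029919, chr6:65117293-65144908, minus strand), which makes prostaglandin D2, moved the other way, with 0.347 and 0.306 CPM in mutant and 1.55 and 1.42 CPM in WT libraries (log2 fold change -2.18, SE 0.43, adjusted p = 9.76e-05). This rests on 10 reads over the mutant and 32 over the WT libraries. Alox5 (ENSMUSG00000025701, chr6:116410077-116461178, minus strand), the lipoxygenase that starts leukotriene synthesis, had 0.208 and 0.245 CPM in mutant and 1.23 and 1.85 CPM in WT libraries (log2 fold change -2.69, SE 0.55, adjusted p = 0.000156). Its reads were 7 over the mutant and 32 over the WT libraries. Ptgs1 shares 148 exon bases with the opposite-strand Gm43621, which was not read in any untreated library.

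Some members are also used by blood and stromal cells, so markers of those cells were read beside them. Of the 6 epithelial markers, whose sums in the untreated libraries are given above, 4 were lower and 1 higher in the mutant. Summed fibroblast and stroma markers reached 0.901 and 1.71 CPM in untreated mutant and 0.109 and 0.164 CPM in untreated WT libraries, with counts for 2 of the 6 markers, Col1a1 and Pdgfra, in either, and Col3a1, Dcn and Lum at 0. The summed macrophage and other myeloid markers were 16.4 and 19.3 CPM in mutant and 17.8 and 18.5 CPM in WT libraries, with Adgre1 and Fcgr3 at 0. Most of these sums was Cd14, which was not called (adjusted p = 0.113), and the other 3 tested myeloid markers changed in both directions. Cd68 averaged 6.67 CPM in mutant and 1.31 CPM in WT libraries (log2 fold change 2.35, adjusted p = 2.51e-07), Itgam 0.161 and 2.00 CPM (-3.57, adjusted p = 4.03e-07) and Mrc1 0.744 and 2.44 CPM (-1.69, adjusted p = 0.000359). Mast cell markers Cpa3, Fcer1a and Ms4a2 were at 0 in all 16 libraries. The summed mast cell list came to 3.81 and 4.47 CPM in mutant and 32.4 and 35.7 CPM in WT libraries, nearly all from Kit, with counts for 3 of 7 markers in each. Platelet markers summed to 0.673 and 0.971 CPM in mutant and 0.436 and 0.572 CPM in WT libraries, with Pf4 and Ppbp at 0 and none called. Lymphocyte markers summed to at most 0.307 CPM in any of the 16 libraries. Reads outside annotated features made up 6.86 to 7.32% in mutant and 4.78 to 5.02% in WT libraries. The part of these marker signals and of these reads in the member results was not tested.

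**Figure D2:**
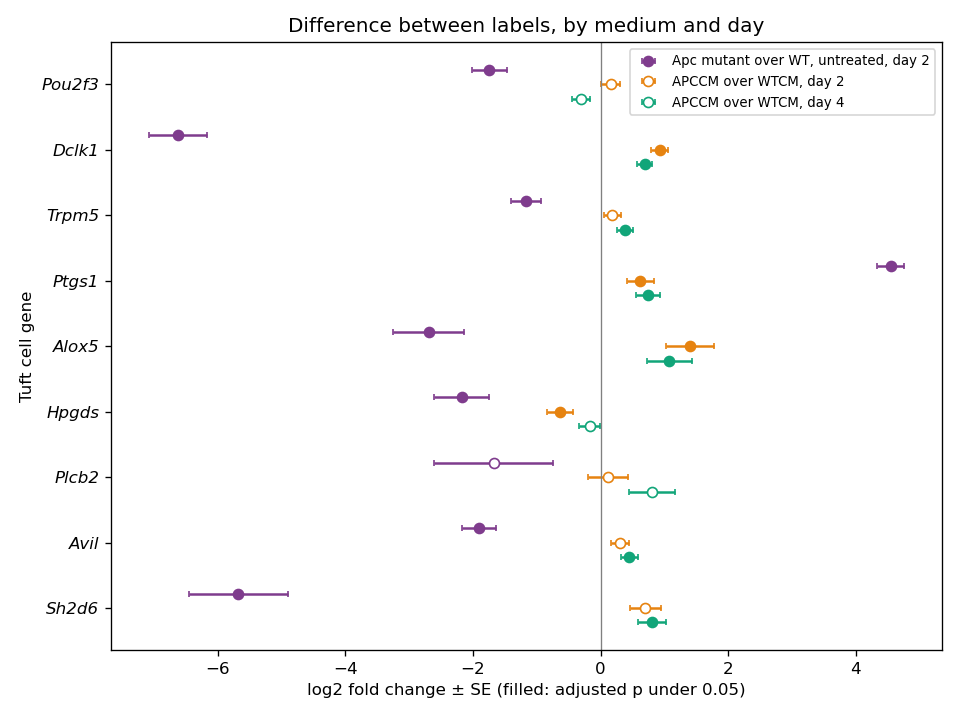
Log2 fold change with its SE (horizontal axis) for the 9 tested tuft cell genes (vertical axis) in the 3 comparisons of labels, filled where the adjusted p was under 0.05. Of the untreated differences, 8 of 9 are negative and Ptgs1 is at 4.55, whereas in conditioned medium the differences lie between -0.64 and 1.40.

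In conditioned medium on day 2, 3 members were higher in APCCM than in WTCM libraries, 1 was lower and 5 did not pass, where 16.7% of all tested genes were called, 8.54% higher and 8.15% lower. The median log2 fold change was 0.31 over the members and 0 over all tested genes. Dclk1 led, with 18.4, 14.8 and 17.5 CPM in APCCM libraries and 7.32, 9.60 and 9.91 CPM in WTCM libraries. Every APCCM library lay above every WTCM library. The log2 fold change was 0.92 (SE 0.13, adjusted p = 1.98e-05), and it was called in all 14 alternatives run. Alox5 had 0.973, 0.637 and 1.37 CPM in APCCM and 0.368, 0.511 and 0.249 CPM in WTCM libraries, again without overlap (log2 fold change 1.40, SE 0.38, adjusted p = 0.0114). Its call was lost without replicate 3 of either group, at adjusted p = 0.099 without the APCCM and 0.0604 without the WTCM library.

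Ptgs1 stood at 3.43, 2.72 and 2.89 CPM in APCCM and 1.24, 2.20 and 2.49 CPM in WTCM libraries (log2 fold change 0.62, SE 0.22, adjusted p = 0.0492). Hpgds was the member that fell, with 1.48, 1.33 and 1.42 CPM in APCCM and 1.89, 2.25 and 2.49 CPM in WTCM libraries (log2 fold change -0.64, SE 0.21, adjusted p = 0.0352). For neither did the groups overlap, but each call held in only 1 of the 6 fits that left out 1 library, that without replicate 3 of WTCM for Ptgs1 and that without replicate 1 of WTCM for Hpgds. Hpgds was also not called by DESeq2 (adjusted p = 0.109) or with no filter on low counts (adjusted p = 0.0673). Without replicate 3 of APCCM, Dclk1 was the 1 member still called, and without replicate 1 of APCCM, replicate 2 of WTCM or replicate 3 of WTCM 2 members were.

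Sh2d6 missed the threshold narrowly on day 2, with 2.46, 1.91 and 2.94 CPM in APCCM and 1.15, 1.79 and 1.59 CPM in WTCM libraries (log2 fold change 0.70, SE 0.25, adjusted p = 0.0528). Avil had 7.83, 6.20 and 5.88 CPM in APCCM and 5.43, 5.36 and 5.28 CPM in WTCM libraries (adjusted p = 0.145). Pou2f3 stood at 5.22, 4.11 and 4.61 CPM in APCCM and 3.50, 3.98 and 5.08 CPM in WTCM libraries, and these ranges overlapped (log2 fold change 0.16, SE 0.15, adjusted p = 0.534). Trpm5, at 12.4, 9.09 and 11.1 CPM in APCCM and 8.51, 10.1 and 10.2 CPM in WTCM libraries, and Plcb2, at 1.33, 1.22 and 0.811 CPM in APCCM and 0.736, 1.23 and 1.15 CPM in WTCM libraries, overlapped too. Gnat3 had 5 reads over the APCCM and 9 over the WTCM libraries and was not tested.

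On day 4 in conditioned medium, 6 members were higher in APCCM libraries and 0 lower, where 15.6% of all tested genes were called, 7.83% higher and 7.80% lower. No member was lower at an unadjusted p under 0.05 except Pou2f3, and DESeq2 also called 0 lower. The median log2 fold change was 0.69 over the members and 0 over all tested genes. Dclk1 had 23.8, 19.9 and 20.0 CPM in APCCM and 16.3, 12.3 and 11.2 CPM in WTCM libraries. The groups did not overlap, the log2 fold change was 0.69 (SE 0.12, adjusted p = 0.000268), and it was called in all 14 alternatives. Without replicate 1 of WTCM, the library that stood apart, the Dclk1 value was 0.85 and 5 members were called, with Trpm5 lost.

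Sh2d6 stood at 3.72, 4.03 and 2.74 CPM in APCCM and 1.74, 2.37 and 1.81 CPM in WTCM libraries (log2 fold change 0.81, SE 0.22, adjusted p = 0.0116). Ptgs1 stood at 4.89, 4.13 and 4.39 CPM in APCCM and 2.82, 3.36 and 1.96 CPM in WTCM libraries (log2 fold change 0.74, SE 0.18, adjusted p = 0.00599). Avil stood at 8.12, 8.83 and 8.02 CPM in APCCM and 7.16, 6.31 and 4.99 CPM in WTCM libraries (log2 fold change 0.45, SE 0.13, adjusted p = 0.0212). Every APCCM library lay above every WTCM library in each of these genes. The share of all tested genes that separate in this way was not counted.

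Alox5 had 0.978, 1.08 and 0.971 CPM in APCCM and 0.651, 0.358 and 0.443 CPM in WTCM libraries (log2 fold change 1.08, SE 0.35, adjusted p = 0.035). Trpm5 had 17.8, 16.9 and 14.3 CPM in APCCM and 12.3, 13.4 and 11.8 CPM in WTCM libraries (log2 fold change 0.38, SE 0.12, adjusted p = 0.0316). Neither overlapped, yet Alox5 held in 1 of the 6 fits without 1 library, that without replicate 1 of WTCM, and Trpm5 in 2, those without replicate 3 of APCCM or replicate 2 of WTCM. DESeq2 called the other 5 members and not Alox5 (adjusted p = 0.0968). Without replicate 3 of WTCM, Dclk1 alone was called, and without replicate 2 of APCCM 2 members were, Dclk1 and Ptgs1.

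Pou2f3 did not follow these members. It had 5.09, 4.80 and 5.19 CPM in APCCM and 5.91, 6.89 and 5.95 CPM in WTCM libraries, so every APCCM library lay below every WTCM library, and the log2 fold change of -0.31 (SE 0.14, adjusted p = 0.143) did not pass. Hpgds overlapped, at 3.18, 3.10 and 2.41 CPM in APCCM and 3.47, 3.31 and 2.99 CPM in WTCM libraries (log2 fold change -0.17, adjusted p = 0.558). Plcb2 stood at 0.734, 0.981 and 0.802 CPM in APCCM and 0.434, 0.716 and 0.296 CPM in WTCM libraries (log2 fold change 0.81, SE 0.36, adjusted p = 0.146). Gnat3 had 6 reads over the APCCM and 4 over the WTCM libraries and was not tested.

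Markers of other cells also differed between labels in conditioned medium, in both directions. On day 2 the myeloid list summed to 17.4 to 21.5 CPM in APCCM and 12.9 to 14.2 CPM in WTCM libraries, and on day 4 to 16.1 to 17.7 and 12.4 to 13.3 CPM. Most of it was Cd14, at 15.3 ± 2.17 CPM in APCCM and 8.24 ± 0.399 CPM in WTCM libraries on day 2 (SD, n = 3), with a log2 fold change of 0.90 (adjusted p = 2.5e-06), and 0.55 on day 4 (adjusted p = 0.000939). Itgam went the other way on day 2, at 1.13 CPM in APCCM and 2.14 CPM in WTCM libraries (log2 fold change -0.91, adjusted p = 0.00643), so 1 of the 4 tested myeloid markers was higher and 1 lower on day 2, and 1 was higher on day 4. Cd68 had log2 fold changes of -0.45 on day 2 (adjusted p = 0.242) and -0.35 on day 4 (adjusted p = 0.412). The defining marker Fcgr3 was at 0 in all libraries, Adgre1 reached at most 0.152 CPM and Csf1r at most 0.543 CPM in conditioned medium. The neuronal marker Tubb3 was lower on day 4, at 1.76 CPM in APCCM and 3.51 CPM in WTCM libraries (log2 fold change -0.99, adjusted p = 0.00323), and the neuronal marker Prph was at 0 in all libraries. Kit was lower on day 4 at 71.1 CPM in APCCM and 81.1 CPM in WTCM libraries (log2 fold change -0.19, adjusted p = 0.0444). Of the 6 epithelial markers, Cdx2 was lower on day 2 (-0.16, adjusted p = 0.0295), and on day 4 Krt8 (0.35, adjusted p = 0.000365) and Krt19 (0.30, adjusted p = 0.0104) were higher. Tssc4 and Tsfm, which overlap Trpm5 and Avil, were not called in conditioned medium on either day, and their part in the levels of these members was not tested. The share of reads outside annotated features was 15.6 to 19.2% in APCCM and 14.4 to 16.5% in WTCM libraries on day 2, and 16.2 to 18.3% and 14.6 to 15.2% on day 4. The part of these markers and reads in the member results was not tested.

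Between days within conditioned medium, more members were higher on day 4 than lower. In APCCM libraries 3 were higher on day 4, Hpgds, Trpm5 and Ptgs1, and 0 lower, where 23.9% of all tested genes were called, 12.2% higher and 11.7% lower, and 0 members were lower at an unadjusted p under 0.05 or by DESeq2. In WTCM libraries 4 were higher, Pou2f3, Dclk1, Hpgds and Trpm5, and Plcb2 was lower, where 24.1% were called, 12.5% higher and 11.6% lower. DESeq2 called 3 of these 5 and neither Hpgds (adjusted p = 0.0877) nor Plcb2 (adjusted p = 0.0794), which left 0 lower. The median member value was 0.32 in APCCM and 0.39 in WTCM libraries, against 0 and 0.00429 over all tested genes. Hpgds averaged 2.89 ± 0.425 CPM on day 4 and 1.41 ± 0.0764 CPM on day 2 in APCCM libraries (log2 fold change 1.02, SE 0.20, adjusted p = 0.000425), and 3.26 ± 0.244 and 2.21 ± 0.303 CPM in WTCM libraries (0.56, SE 0.18, adjusted p = 0.0229). Trpm5 averaged 16.3 ± 1.79 CPM on day 4 and 10.9 ± 1.68 CPM on day 2 in APCCM libraries (0.58, SE 0.13, adjusted p = 0.00136), and 12.5 ± 0.799 and 9.61 ± 0.951 CPM in WTCM libraries (0.38, SE 0.13, adjusted p = 0.0331). In WTCM, the Hpgds and Trpm5 calls each held in 2 of the 6 fits without 1 library, those without replicate 3 of either day.

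Pou2f3 in WTCM libraries averaged 6.25 ± 0.556 CPM on day 4 and 4.19 ± 0.809 CPM on day 2 (log2 fold change 0.58, SE 0.14, adjusted p = 0.00452), and in APCCM libraries 5.03 ± 0.202 and 4.65 ± 0.555 CPM (0.11, SE 0.15, adjusted p = 0.649). Dclk1 in WTCM libraries averaged 13.3 ± 2.70 CPM on day 4 and 8.94 ± 1.41 CPM on day 2 (0.56, SE 0.13, adjusted p = 0.00359), and in APCCM libraries 21.2 ± 2.23 and 16.9 ± 1.89 CPM (0.32, SE 0.12, adjusted p = 0.0546). Plcb2 in WTCM libraries averaged 0.482 ± 0.214 CPM on day 4 and 1.04 ± 0.262 CPM on day 2, a fall of 1.11 on the log2 scale, with adjusted p = 0.0245. Without replicate 1 of WTCM on day 4, the library that stood apart, 2 members were called between days in WTCM, Pou2f3 and Dclk1. Likewise 2 were called without replicate 2 of WTCM on day 2, and 3 without its replicate 1 or without replicate 2 of WTCM on day 4. Without replicate 3 of WTCM on either day Plcb2 was not called. In APCCM, Ptgs1 averaged 4.47 ± 0.387 CPM on day 4 and 3.01 ± 0.370 CPM on day 2 (0.56, SE 0.18, adjusted p = 0.0279), a call lost without replicate 2 or 3 of day 2 or replicate 1 or 3 of day 4. Some markers of other cells were also higher on day 4. The platelet marker Itga2b averaged 2.62 CPM on day 4 and 1.04 CPM on day 2 in APCCM libraries (log2 fold change 1.33, adjusted p = 9.38e-05), and 2.21 and 0.987 CPM in WTCM libraries (1.14, adjusted p = 0.000586), with Ppbp at 0. Tubb3 had values of 0.79 in APCCM (adjusted p = 0.0425) and 1.19 in WTCM libraries (adjusted p = 0.000535), and Kit of 0.31 (adjusted p = 0.00091) and 0.43 (adjusted p = 2.09e-05). In WTCM libraries the myeloid marker Itgam was lower on day 4 (-0.60, adjusted p = 0.0419). Of the epithelial markers, Vil1 was higher on day 4 in both and Cdx2 lower in WTCM. The part of these markers in the member results was not tested.

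**Figure D3:**
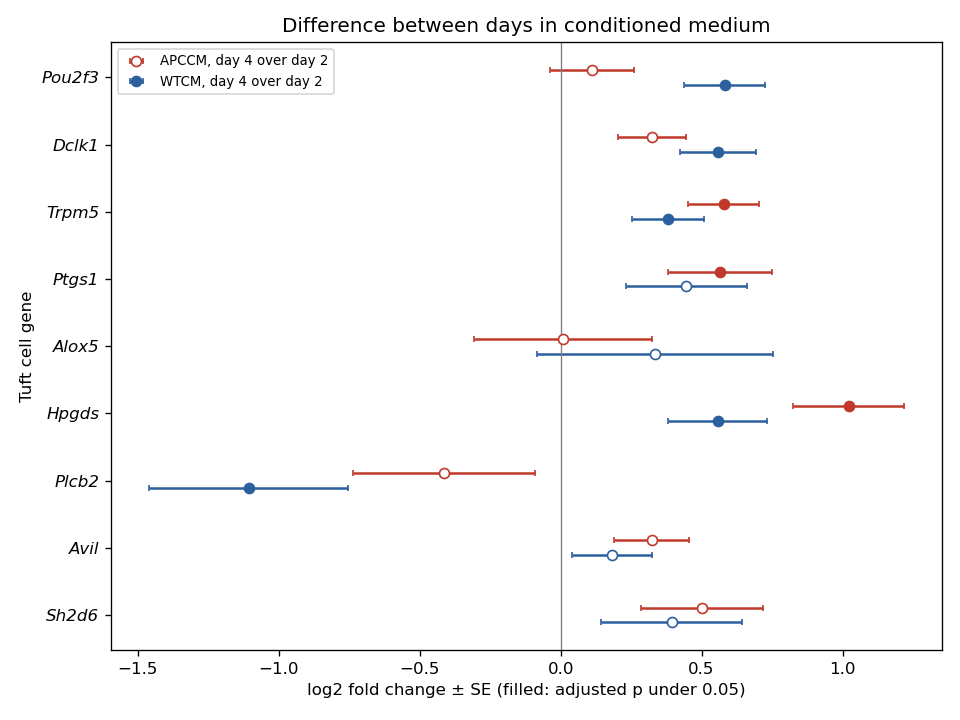
Log2 fold change of day 4 over day 2 with its SE (horizontal axis) for the 9 tested tuft cell genes (vertical axis) in APCCM and WTCM libraries, filled where the adjusted p was under 0.05. Hpgds has the largest APCCM value, 1.02, and Plcb2 the lowest WTCM value, -1.11.

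The difference between labels was tested against day and against medium. Of the 9 members, 0 differed between days by edgeR, where 2.13% of all tested genes did, 0.884% higher and 1.24% lower. DESeq2, which gave an adjusted p for 7 of the members, also called 0. At an unadjusted p under 0.05 by edgeR there was 1, Pou2f3 (log2 interaction -0.47, SE 0.21, adjusted p = 0.349). Between media on day 2, the label difference changed for 8 of 9 members, 1 upward and 7 downward, where 53.1% of all tested genes were called, 26.4% higher and 26.7% lower. The interaction was -7.55 for Dclk1 and 3.92 for Ptgs1 on the log2 scale. The organoid line, the sex of the cells and library preparation cannot be told apart from the medium. Notum averaged 285 CPM in the untreated mutant, against 0.676 CPM in APCCM libraries on day 2, and Nkd1 averaged 486 against 1.61 CPM. Apc, counted over the whole gene, averaged 233 against 267 CPM in the same groups. The label contrast in conditioned medium may not be one of cell genotype, so the interaction may set 2 different contrasts against each other.

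Genes with the profile most like that of Pou2f3 were sought over the 6 groups, by the root mean square difference of centred mean log2 CPM. Of the other 16509 tested genes the 5 closest were Gm43672, Gm13066, Pm20d2, Rundc3a and Acbd4, at differences of 0.0951 to 0.109. Among the members Avil was closest at rank 212, followed by Trpm5 at 268 and Hpgds at 825. Plcb2 ranked 4089, Alox5 5417, Sh2d6 10059, Dclk1 14924 and Ptgs1 15908.

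A further 50 genes in 5 lists known from tuft cells were read beside the members, of which 38 were tested. Without conditioned medium 13 were higher and 19 lower in mutant libraries (median log2 fold change -0.69), where 32.4% of all tested genes were higher and 30.1% lower. Higher with the smallest adjusted p were the keratin Krt23 at 308 ± 1.88 CPM in mutant and 51.8 ± 0.676 CPM in WT libraries (SD, n = 2), the crypt and progenitor factor Sox9 at 173 and 66.0 CPM, and Nrep at 20.0 and 2.99 CPM. Lower were Pla2g4a, the phospholipase that releases arachidonic acid, at 14.1 ± 0.504 CPM in mutant and 107 ± 11.7 CPM in WT libraries, the microvillus protein Vil1 at 253 and 667 CPM, and Lta4h, which makes leukotriene B4, at 110.4 and 259 CPM. Sox9, Vil1, Krt18, Krt23 and Cd24a are also expressed in other epithelial cells.

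By list, without conditioned medium, tuft identity and fate genes had, against the same shares over all genes, 3 higher and 2 lower of 7 tested, taste type transduction 4 and 2 of 6, eicosanoid and acetylcholine output 1 and 5 of 7, type 2 receptors and surface 1 and 5 of 8, and cytoskeleton and kinases 4 and 5 of 10. Some genes outside the naming rule were chosen after their values were seen. The coactivator of Pou2f3, listed as 1810046K07Rik (Pou2af2), averaged 0.296 CPM in mutant and 3.78 CPM in WT libraries (log2 fold change -3.66, SE 0.42, adjusted p = 3.47e-08). Spib, another factor of tuft cells, averaged 0.292 and 3.37 CPM (adjusted p = 2.96e-07), and Alox5ap, the partner protein of Alox5, 0.0612 and 1.84 CPM (adjusted p = 5.48e-06). Ptges, which makes prostaglandin E2 from the product of Ptgs1, averaged 4.25 CPM in mutant and 0.136 CPM in WT libraries (adjusted p = 4.17e-07). Spib and 1810046K07Rik were the 2 lower genes of the tuft identity and fate list. Its 3 higher genes were Sox9, Nrep and Ascl2, and its median log2 fold change of 1.39 was the value of Sox9. Other listed genes rose, among them Ascl2 (log2 fold change 2.03, adjusted p = 6.97e-11) and Sucnr1 (3.99, adjusted p = 0.00263). Sucnr1 averaged 0.836 CPM in mutant and 0.0409 CPM in WT libraries. That WT mean lay below the WT floor of 0.140 CPM, and the mutant mean of Alox5ap below the mutant floor of 0.0975 CPM. The sizes of these differences are therefore poorly measured. Tas1r3 (1.94, adjusted p = 0.000168) and Itpr2 (1.00, adjusted p = 7.42e-05) rose too.

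In conditioned medium on day 2, 7 of the 38 were higher and 2 lower in APCCM libraries (median 0.08), where 16.7% of all tested genes were called. On day 4, 2 were higher and 5 lower (median -0.03), a share near the 15.6% called over all tested genes. On day 2 Krt23 averaged 89.0 ± 4.35 CPM in APCCM and 63.8 ± 4.39 CPM in WTCM libraries (SD, n = 3), Krt18 768 and 633 CPM, and the surface lectin Siglecf 0.629 and 0.147 CPM, while Lta4h was lower at 180.4 and 208 CPM. On day 4 the interleukin receptor chains Il4ra, at 47.6 ± 1.79 CPM in APCCM and 39.4 ± 0.931 CPM in WTCM libraries, and Il13ra1, at 50.6 and 43.6 CPM, were higher. Cd24a, at 336 and 474 CPM, and Ascl2, at 9.40 and 15.6 CPM, were lower. Sox9 was called in all 3 label comparisons, with log2 fold changes of 1.39 without conditioned medium, -0.21 in it on day 2 and -0.43 on day 4. By list on day 2, 1 was higher and 1 lower of tuft identity and fate, 0 and 0 of taste type transduction, 0 and 1 of eicosanoid and acetylcholine output, 3 and 0 of type 2 receptors and surface, and 3 and 0 of cytoskeleton and kinases. On day 4 the same lists had 0 and 3, 0 and 0, 0 and 1, 2 and 1, and 0 and 0. Between days 6 of the 38 were higher and 4 lower in APCCM libraries, near the 23.9% called over all tested genes, and 11 were higher and 1 lower in WTCM libraries, where 24.1% were called. The label difference was lower on day 4 than on day 2 for 3 genes, named after their values were seen, Cd24a (log2 interaction -0.47), Krt23 (-0.50) and Pla2g4a (-0.28). Over all tested genes 2.13% differed between days. Between media it was higher for 9 and lower for 18, where 53.1% of all tested genes were called.

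**Figure D4:**
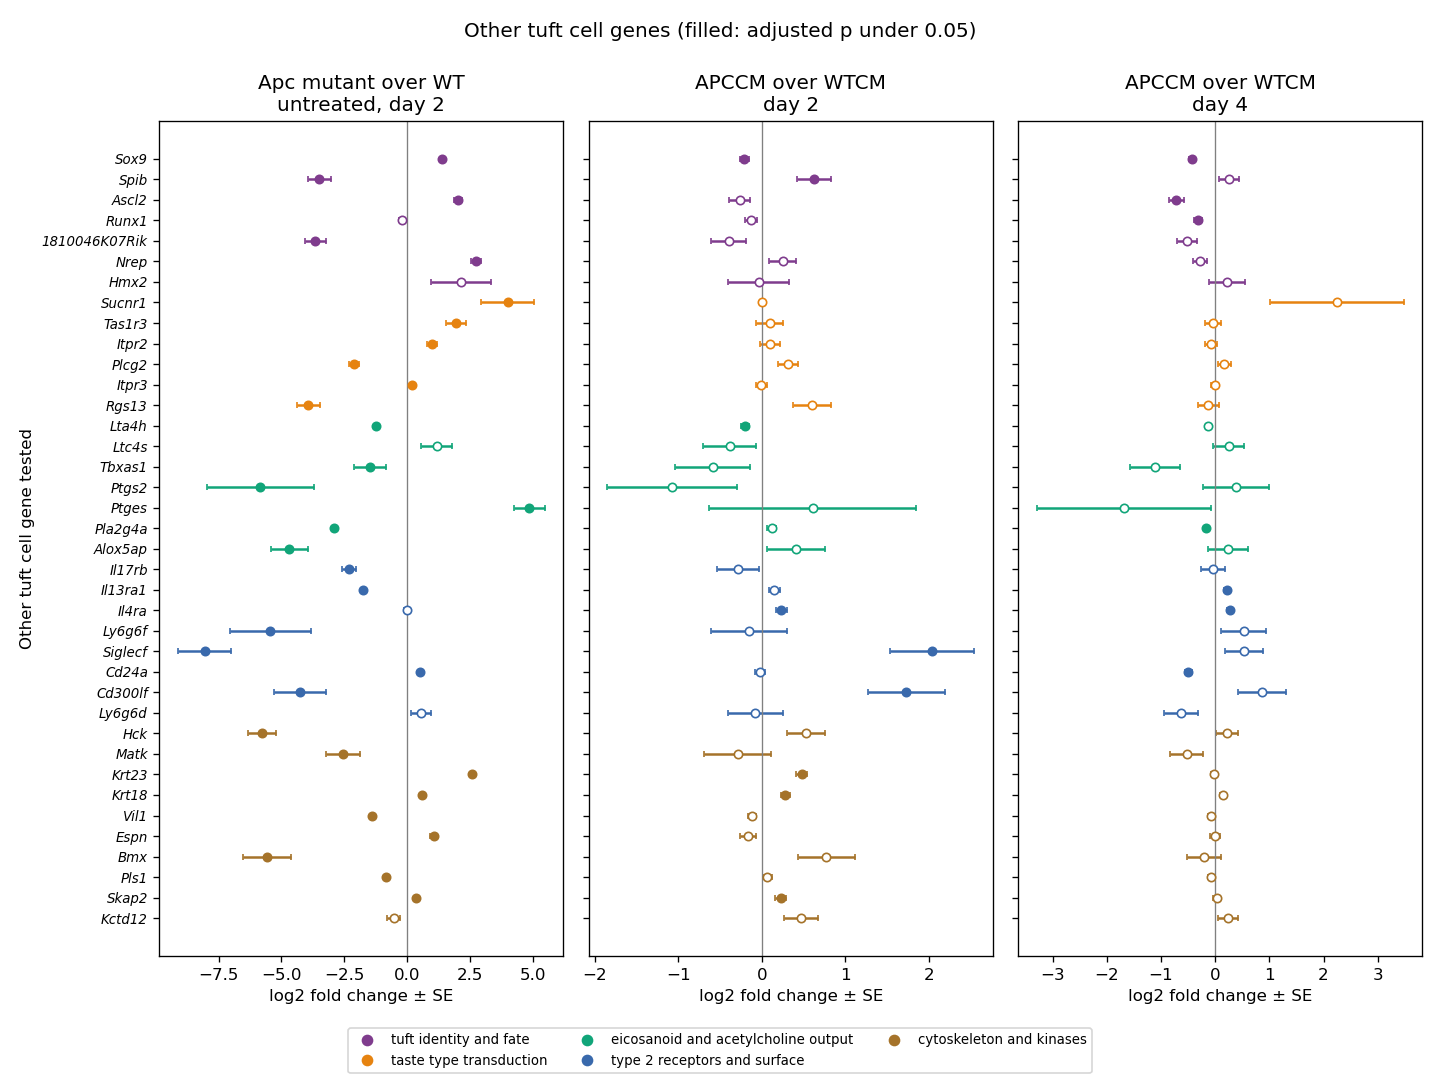
Log2 fold change with its SE (horizontal axis, scaled separately in each panel) for the 38 tested genes of the 5 other tuft cell lists (vertical axis, coloured by list) in the 3 label comparisons, filled where the adjusted p was under 0.05. Values spread widest without conditioned medium, where 13 genes are higher and 19 lower.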

How the data were processed

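RNA-seq libraries were made with KAPA RNA HyperPrep with RiboErase, per the labels' protocols. The authors deposited raw read counts, 1 table per library, with 46078 Ensembl genes and 5 summary lines in htseq-count format. Build GRCm38 and the tools HTSeq 0.6.1p1, HISAT2 2.1.0 and Trimmomatic 0.36 are named in the submitters' processing notes. No strand setting was found in those notes or the labels, so it is not known whether reads of overlapping genes on opposite strands were separated. Library sizes hold gene rows only. Of all reads, those outside features made up 4.78 to 19.2% of reads, multiple alignments 26.5 to 38.9%, unaligned reads 2.77 to 9.41% and ambiguous reads 0.461 to 0.599%. GENCODE M21 gave symbols for 45143 identifiers (98.0%), coordinates and exon lengths.

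All 16 libraries, in 6 groups, were fitted together with edgeR 4.0.16 (limma 3.58.1, R 4.3.3) on the counts. TMM factors were 0.898 to 1.26, filterByExpr kept 16510 genes, and the quasi-likelihood test was adjusted by Benjamini-Hochberg over them at 0.05. CPM are counts over the TMM-scaled library size of tested genes. The SE is the log2 fold change over the square root of F. Member ratios with 3 or fewer counts in a group carry an exact 95% interval, which was not computed for the other listed genes. The scripts were tested on simulated counts. The 7 comparisons were label in each medium and day, day in each conditioned medium label, and label by day and by medium. Alternatives changed the scaling, filter, test (DESeq2 1.42.0), genes, libraries and pairing.

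The members, lists and tests were chosen with earlier results of these data known. All 10 members are named in the 3 label comparisons. In the day comparisons and interactions every called member is named, and most members not called are not. Of the other lists, the 3 genes with the smallest adjusted p in each direction per label comparison, and any called in all 3, are named. Likeness to Pou2f3 names the 5 closest genes and the ranks of the members. Pairing was checked from correlations of deviations. Summed levels of the neuron and glia markers are not reported here.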

Additional observations from a re-analysis of the deposited data

Results flagged for a closer look

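Members whose label difference on day 2 was not the same without conditioned medium as in it are listed here, by the interaction in edgeR's quasi-likelihood test. Each value is the log2 difference of Apc mutant over WT without conditioned medium minus that of APCCM over WTCM in it. It was -7.55 for Dclk1 (adjusted p = 8.58e-13), -6.38 for Sh2d6 (3.12e-07), -4.10 for Alox5 (1.21e-05), -2.21 for Avil (1.1e-06), -1.91 for Pou2f3 (1.42e-05), -1.54 for Hpgds (0.00951) and -1.35 for Trpm5 (0.000151). For Ptgs1 it was 3.92 (2.51e-10). All 8 were also called by DESeq2, and Hpgds was not called without replicate 5 of the untreated mutant (adjusted p = 0.0533). Of all tested genes 53.1% were called in this interaction, and medium, organoid line, sex of the cells and preparation cannot be told apart. The titles APCCM and WTCM may not stand for cell genotype, so the interaction may set 2 different contrasts against each other. The values for Dclk1 and Sh2d6 rest on 3 reads and 1 read in the untreated mutant libraries.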

How the results depend on the processing

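No member log2 fold change that was called changed sign under any alternative. The 8 calls without conditioned medium held under all 13 alternatives, and the Dclk1 label calls under all 14 on both days. Leaving out 1 library gave 1 to 3 called members between labels on day 2 in conditioned medium (4 with all libraries), 1 to 5 on day 4 (6), 2 to 4 between days in APCCM (3), 2 to 5 between days in WTCM (5), 8 without conditioned medium (8), 7 to 8 for label by medium (8) and 0 for label by day (0). DESeq2 called 3 between days in WTCM, without Hpgds (adjusted p = 0.0877) and Plcb2 (0.0794). Of single-gene values 53 lost and 11 gained a call. The cause was not tested.

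With the replicate block, 2 members were called between labels in conditioned medium on day 2, against 4 without it. The other counts were 8 without conditioned medium, 5 on day 4, 3 and 5 between days in APCCM and WTCM, 0 for label by day and 8 for label by medium. In conditioned medium, same-numbered correlations lay between -0.0492 and 0.0529. Deviations centred within groups of 3 cannot settle whether the numbers pair the libraries. Between days in APCCM the same-numbered values were 0.0456, 0.0529 and 0.0497, and the others lay between -0.0648 and 0.0192. The same-numbered untreated libraries correlated at -0.149 and the crossed ones at 0.149. With 2 libraries per group these values are equal and opposite by construction, so they cannot settle the pairing either. A crossed pairing, chosen after seeing the data, called 8 members and 10564 genes in all. Over all genes, label by day had 351 calls and 568 with conditioned medium libraries only, and label on day 2 in conditioned medium 2755 and 1725 without replicate 3 of APCCM. Fitting the medium class alone could not be run for label by medium. Leaving an untreated library out leaves 1 in its group, assumed to vary like the others.

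Groups of 2 or 3 libraries and the single-digit counts of Gnat3 and Plcb2 in each untreated library limit the calls, and untreated libraries were the shallowest. Counts of Dclk1, Sh2d6, Alox5 and Hpgds were also in single digits in each untreated mutant library.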
